A study of Mus musculus with 9 samples.

Results

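Complement is a cascade of plasma and tissue proteins that tags cells and debris for removal and recruits leukocytes, and reperfused myocardium is a setting in which its activation products are well known. Expression was measured here for 9 genes of the cascade, C1qa, C1qb, C1qc, C3, C4b, Cfb, C3ar1, C5ar1 and Serping1, which were picked by name from a table of 54532 genes, and all 9 were found. C1qa, C1qb and C1qc encode the chains of C1q, the recognition protein of the classical pathway, which tissue macrophages make in quantity. C4b encodes C4 and C3 the central component, whose cleavage products coat surfaces, and Cfb encodes factor B, the protease of the alternative pathway. Serping1 encodes the C1 inhibitor, which blocks the proteases that C1q activates. C3ar1 and C5ar1 encode the receptors for C3a and C5a, the small fragments that attract and activate myeloid cells.

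RNA was taken from hearts of male C57BL/6J mice of wild-type genotype, 8 to 10 weeks old, with 3 libraries in each of 3 groups. The sham group had its chest opened and a thread placed but not tied, the MIRI group (myocardial ischemia/reperfusion injury) had 30 min of ligation of the left anterior descending coronary artery and then 24 h of reperfusion, and the GXNI group had the same operation with Guanxinning injection, an herbal preparation, at 9 mL/kg. All groups received the drug or saline through the tail vein. The labels name cardiomyocytes as the cell type, but markers of macrophages, fibroblasts and endothelium were read in every library, at summed levels of at least 224.9, 472.4 and 552.0 CPM (counts relative to the library total), beside at least 26390 CPM for the 6 cardiomyocyte markers. The libraries held 17119454 to 22811295 counts, of which 23.0% to 29.8% were mitochondrial. In such bulk tissue, fewer cells of a type and less RNA per cell cannot be told apart.

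Libraries of the operated groups did not sort by their labels. Over 15207 genes, each sham library was nearest to another sham library, and no operated library was nearest to a library of its own label. The library labelled MIRI 2 was nearest to GXNI 1 (Spearman rho 0.982), MIRI 1 and MIRI 3 to GXNI 3 (rho 0.986 and 0.987), GXNI 3 to MIRI 3, GXNI 2 to MIRI 1 (rho 0.980) and GXNI 1 to sham 1 (rho 0.984). Whether any label is wrong was not tested, and the groups below follow the labels. Results are therefore given with all libraries, then without the libraries they rest on. They are also given for the 6 libraries of MIRI and GXNI together against sham. This comparison does not depend on which of these 2 labels an operated heart carries. Each library was left out in turn, and the fits shown without 1 were picked after the values were seen. They describe how far a result rests on that library, and their p are not tests of a group difference.

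The 3 C1q genes lie side by side on the reverse strand of chromosome 4 (build GRCm38), all within 18675 bases. C1qa spans 136895917 to 136898803, C1qc 136889804 to 136893065 and C1qb 136880129 to 136886187. C3 lies on chromosome 17 from 57203970 to 57228136, C4b on chromosome 17 from 34728380 to 34743882, and Cfb on chromosome 17 from 34856374 to 34862518. C3ar1 lies on chromosome 6 from 122847138 to 122856161, C5ar1 on chromosome 7 from 16246743 to 16259540 and Serping1 on chromosome 2 from 84765387 to 84775444, all on the reverse strand. RefSeq sequence of the 250 bases before RefSeq's start of transcription was at hand for 5 of the 9 genes (build GRCm38.p6). By GENCODE, 151 of these bases for C1qc, 202 for C5ar1 and 4 for C3ar1 lie inside the annotated gene, whose annotated start is further upstream, and those for C1qb and C3 lie outside. The longest stretch free of annotated exons is printed, which is 99 bases for C1qc, 246 for C3ar1, 174 for C5ar1 (within an intron of the longer transcripts) and all 250 for C1qb. C1qb and C1qc are shown as neighbours in the C1q locus, and C3ar1 and C5ar1 because this pair of receptors differed in how it moved. Capitals mark matches on either strand to the letters of an ETS motif (AGGAAGT), an IRF motif (GAAANNGAA), the TATA box (TATAAA).
C1qb, chr4:136886201-136886450, reverse strand: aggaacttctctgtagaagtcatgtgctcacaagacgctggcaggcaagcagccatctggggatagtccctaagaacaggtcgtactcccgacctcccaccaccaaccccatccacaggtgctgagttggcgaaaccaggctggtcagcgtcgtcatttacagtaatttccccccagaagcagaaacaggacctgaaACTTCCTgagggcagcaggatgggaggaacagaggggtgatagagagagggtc
C1qc, chr4:136893066-136893164, reverse strand: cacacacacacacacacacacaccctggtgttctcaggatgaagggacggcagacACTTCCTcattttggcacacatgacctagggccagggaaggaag
C3ar1, chr6:122856162-122856407, reverse strand: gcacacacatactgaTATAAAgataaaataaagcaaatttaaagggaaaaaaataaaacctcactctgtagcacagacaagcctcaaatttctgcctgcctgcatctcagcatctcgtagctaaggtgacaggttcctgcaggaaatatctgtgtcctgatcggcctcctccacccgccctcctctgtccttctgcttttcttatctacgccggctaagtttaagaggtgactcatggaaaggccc
C5ar1, chr7:16259339-16259512, reverse strand: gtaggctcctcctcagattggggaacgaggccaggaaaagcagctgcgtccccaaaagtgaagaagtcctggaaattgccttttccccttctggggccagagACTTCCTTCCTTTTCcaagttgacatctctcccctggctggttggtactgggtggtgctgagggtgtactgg
Positions are counted backwards from RefSeq's start of transcription, and all 250 bases were searched. C5ar1 held the ETS letters at -190 to -184, outside the stretch printed, and again at -72 to -66, where the last base is shared with an IRF match at -66 to -58. The C1qb sequence held the ETS letters at -53 to -47, and that of C1qc held them at -195 to -189. C1qc also matched the kappa-B consensus at -41 to -32, in bases that GENCODE annotates as exon. In the C3ar1 sequence the match was to the TATA letters, at -235 to -230. The C3 sequence, not shown, held the C/EBP letters (TTGCNNAA) at -45 to -38. Of 32851 mouse promoters of this length, 7.69% held the ETS letters, 7.13% the IRF letters, 3.9% the kappa-B consensus, 12.4% the TATA letters and 9.56% the C/EBP letters. A STAT motif (TTCNNNGAA), held by 7.02%, was also searched and matched in none of the 5. These are matches of letters and not measured binding sites.

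In the sham heart C1qa and C1qb were the most abundant of the 9 transcripts per length. On a scale that divides CPM by the kilobases of exon (RPKM), C1qa stood at 98.8 ± 9.83 (SD, n = 3), C1qb at 82.2 ± 2.27. Serping1 followed at 52.6 ± 2.15, then C1qc at 39.0 ± 3.80 and C3 at 38.2 ± 9.66, which were within each other's spread. C4b came next at 7.79 ± 0.837, then C5ar1 at 4.93 ± 0.358 and C3ar1 at 3.52 ± 0.823. Cfb was far below the rest at 0.141 ± 0.0317. Apart from C1qc and C3, neighbours in this order did not overlap among the sham libraries.

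C1qa, C1qb and C1qc were lower in the MIRI hearts than in the sham hearts by about the same amount, and none of the 3 passed the test. C1qa was read at 91.5, 111.4 and 105.3 normalized CPM in sham 1 to 3, at 84.0, 74.2 and 88.0 CPM in MIRI 1 to 3, and at 128.1, 67.3 and 47.8 CPM in GXNI 1 to 3. Every MIRI library was below every sham library, while the GXNI group held both the highest and the lowest value of all 9. C1qb was read at 86.7, 90.2 and 91.5 CPM in sham, at 71.8, 57.7 and 80.9 CPM in MIRI, and at 111.3, 59.5 and 45.5 CPM in GXNI. Its order of libraries was like that of C1qa, with MIRI entirely below sham and GXNI spread to both sides. C1qc was read at 67.4, 81.9 and 76.6 CPM in sham, at 61.3, 57.2 and 68.2 CPM in MIRI, and at 100.2, 51.5 and 33.9 CPM in GXNI. For C1qc the library labelled MIRI 3 reached above sham 1, so the groups overlapped.

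The log2 fold changes of MIRI against sham were -0.32 ± 0.14 (SE) for C1qa, -0.35 ± 0.15 for C1qb and -0.27 ± 0.14 for C1qc, with unadjusted p of 0.0523, 0.0602 and 0.0869 and adjusted p of 0.18, 0.193 and 0.232 in edgeR. Following the study, a call required a 1.5-fold change in either direction together with an unadjusted p no larger than 0.01. The GXNI group held no C1q gene past that rule against sham either, with log2 fold changes of -0.34 ± 0.34, -0.30 ± 0.31 and -0.28 ± 0.37. The library labelled GXNI 1 decided this, in a fit picked after the values were seen and so given as a description. Without that library, C1qa fell by 0.83, C1qb by 0.76 and C1qc by 0.81 on the log2 scale, with unadjusted p of 0.00385, 0.00214 and 0.00706.

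The 3 chains kept nearly fixed proportions although their levels ranged from 2.45-fold (C1qb) to 2.96-fold (C1qc) between the lowest and the highest library. Of the counts on the 3 genes, C1qa took 37.1% to 39.3%, C1qb 30.5% to 35.8% and C1qc 26.6% to 30.3% over the 9 libraries. The shares of each chain in the MIRI and GXNI libraries overlapped those in the sham libraries. After each gene was centred on its own mean, C1qa and C1qc differed by a root mean square of 0.047 log2 units over the 9 libraries, the smallest difference from C1qa among 13437 genes, whose median difference from it was 0.495. Outside the trio Ccdc163 was nearest, at 0.112 to C1qa, 0.114 to C1qb and 0.106 to C1qc, while C1qb and C1qc were 0.115 apart. Zfp125 was at 0.166 to C1qa, and Man2b2 was among the nearest to C1qb at 0.142.

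How steady the C1q trio was beside macrophage genes depended on the gene. Per count of Csf1r, the receptor for the macrophage growth factor, the trio had 4.15 to 5.01 counts in the sham libraries, 3.07 to 4.67 in the MIRI libraries and 2.32 to 4.59 in the GXNI libraries. Per count of Mrc1, the mannose receptor of resident macrophages, it had 3.83 to 6.62 counts in sham, 4.72 to 5.01 in MIRI and 4.30 to 5.43 in GXNI, and per count of Cd163 it had 3.88 to 10.2 over all 9 libraries. The summed level of the 10 macrophage markers was 227.2 to 308.8 CPM in sham, 224.9 to 399.5 CPM in MIRI and 253.6 to 407.8 CPM in GXNI. In the library labelled GXNI 3, which had the lowest C1q levels, the sum was 334.7 CPM. Cd14, which monocytes also express, made up 111.0 CPM of it, against 10.7 to 12.7 CPM in sham. Mrc1 at 23.4 CPM, Cd163 at 12.5 CPM, Lyve1 at 27.9 CPM and Timd4 at 0.464 CPM were at their lowest of all 9 libraries there. Adgre1 at 14.3 CPM was below every sham library. Fcgr1 went the other way, at its highest of all 9 with 47.95 CPM, and Cd68 at 23.6 CPM was above every sham library. Csf1r at 54.8 CPM and Mertk at 18.75 CPM were within the sham range.

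**Figure D1:**
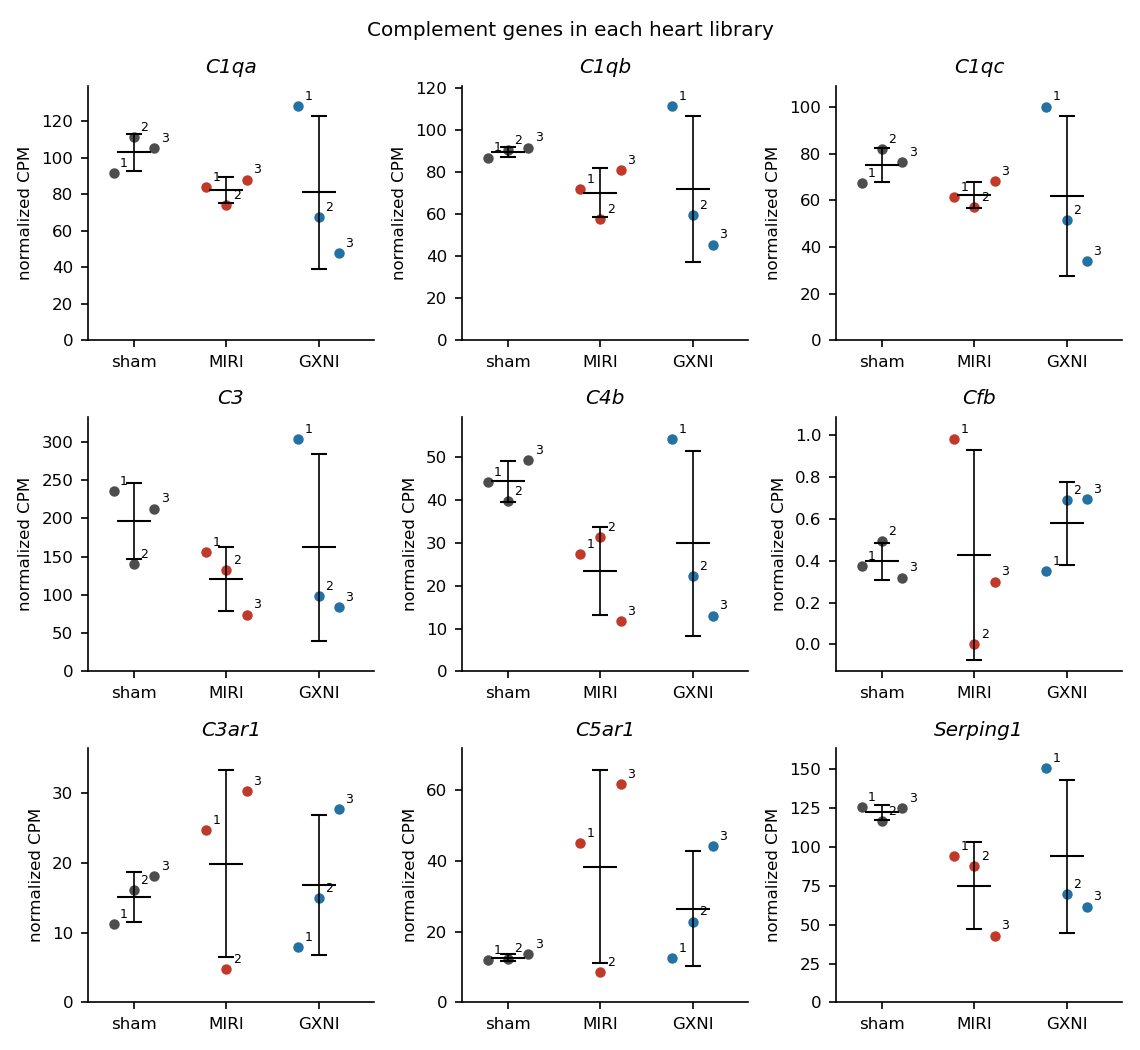
Normalized CPM (vertical axis, 1 panel per gene) of the 9 complement genes in the sham, MIRI and GXNI groups, with a point for each library marked by its replicate number and bars for the mean and SD. The library labelled GXNI 1 was highest for the C1q genes, C3, C4b and Serping1, and MIRI 3 was highest for C3ar1 and C5ar1.

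C4b and Serping1 were lower in all 3 MIRI libraries than in all 3 sham libraries, and C3 in 2 of 3. With all libraries none of them was called by edgeR with its filter on low counts, while without that filter C4b was, as given below. C4b was read at 44.2, 39.7 and 49.2 CPM in sham 1 to 3, at 27.3, 31.3 and 11.8 CPM in MIRI 1 to 3, and at 54.2, 22.3 and 13.0 CPM in GXNI 1 to 3. The library labelled GXNI 1 was the only operated heart at or above the sham range. Its log2 fold change in MIRI against sham was -0.92 ± 0.34, with an unadjusted p of 0.0298 and an adjusted p of 0.142, which did not pass the rule. C4a, a near-identical copy of C4b, had 2 to 15 counts in a library, and reads that fit both copies may have been split between them or dropped.

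Serping1 was steady in the sham libraries, at 125.4, 116.5 and 124.8 CPM. It was read at 94.2, 87.8 and 42.9 CPM in MIRI and at 150.4, 69.9 and 61.5 CPM in GXNI. All but 1 of the 6 operated hearts were below every sham heart, the exception being the library labelled GXNI 1. Its log2 fold change in MIRI against sham was -0.70 ± 0.28, with an unadjusted p of 0.0418 and an adjusted p of 0.163. C3 was read at 235.8, 140.6 and 213.0 CPM in sham, at 155.8, 132.5 and 74.1 CPM in MIRI, and at 303.6, 98.8 and 83.9 CPM in GXNI. Its groups overlapped through sham 2, and the log2 fold change in MIRI against sham was -0.70 ± 0.31, with an unadjusted p of 0.0597 and an adjusted p of 0.193.

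Complete separation from sham on the low side was common among all genes. C1qa, C1qb, C4b and Serping1 were 4 of the 8 members tested in MIRI against sham with every MIRI library below every sham library, and 16.2% of the 14644 genes tested showed this. In MIRI and GXNI together against sham, C4b changed by -0.74 ± 0.41, Serping1 by -0.53 ± 0.32 and C3 by -0.47 ± 0.41 on the log2 scale, none past the rule. Without the library labelled GXNI 1, C4b fell by 1.07 and Serping1 by 0.78 in that comparison, with unadjusted p of 0.00771 and 0.00818, where 5.7% of genes were called lower. In GXNI against sham without that library, C3 fell by 1.09, C4b by 1.32 and Serping1 by 0.88 on the log2 scale, with unadjusted p of 0.00353, 0.0016 and 0.000333. Together with the C1q trio these were 6 members called lower, and C5ar1 was called higher at 1.42 ± 0.28, where 7.08% of all genes were called lower and 10.7% higher.

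C3, C4b and Serping1 and the summed fibroblast markers were all highest in the library labelled GXNI 1, where the mesothelial markers also stood out. The summed level of the 6 fibroblast markers was 843.3 to 925.2 CPM in sham, 611.7 to 792.7 CPM in MIRI, and 1114, 622.6 and 472.4 CPM in GXNI 1 to 3. The match was loose, since MIRI 1 and MIRI 3 had sums of 615.6 and 611.7 CPM beside 94.2 and 42.9 CPM of Serping1. The 6 mesothelial markers, of the heart's outer lining, summed to 76.1 CPM in the library labelled GXNI 1 and to between 8.94 and 25.1 CPM in all others. Serping1 per count of the fibroblast gene Dcn was 0.238 to 0.286 in sham, 0.179 to 0.273 in MIRI and 0.246 to 0.287 in GXNI. C4b per count of Dcn was 0.0812 to 0.113 in sham, 0.049 to 0.0792 in MIRI and 0.0519 to 0.104 in GXNI. Both ratios spanned a narrower range than the levels themselves, 1.61-fold for Serping1 and 2.3-fold for C4b, against 3.5-fold and 4.61-fold. Dcn is 1 of the 6 markers, and another of them, Pdgfra, had a higher mean in the operated groups, at 51.8 CPM in sham, 63.9 in MIRI and 64.0 in GXNI. The 6 hepatocyte markers, of the cell type that makes most plasma complement, summed to at most 0.594 CPM in any library. The part of cell composition in these results was not tested. The nearest genes by pattern were Bmper (0.185 log2 units) and C1ra (0.189) for C3, Plekha6 (0.122) and Ddb2 (0.161) for C4b, and Prkdc (0.142) and Nampt (0.156) for Serping1.

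**Figure D2:**
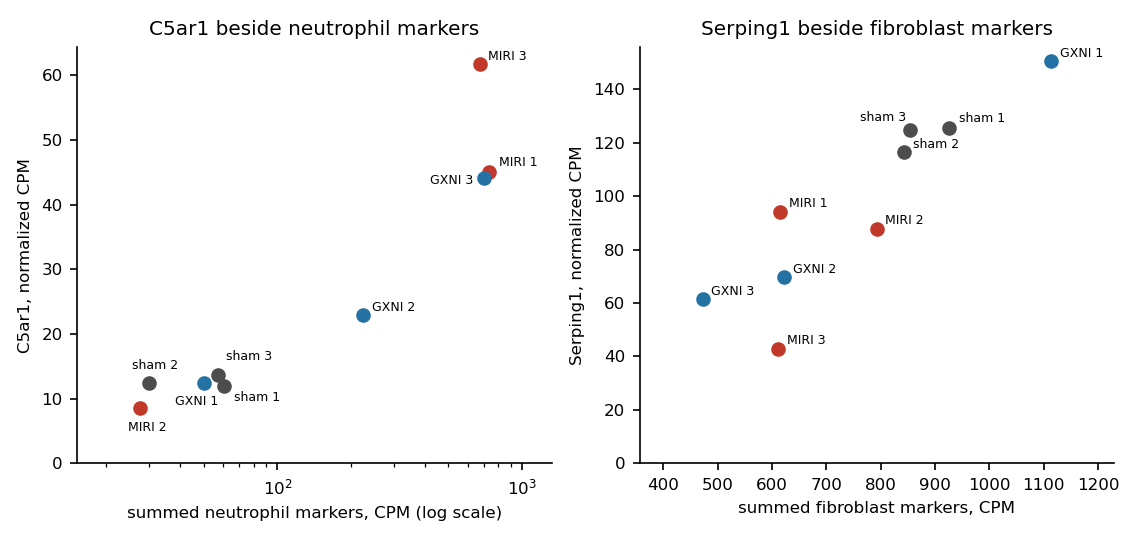
Normalized CPM of C5ar1 against the summed CPM of 10 neutrophil markers on a log axis (left), and of Serping1 against the summed CPM of 6 fibroblast markers (right), with a point for each of the 9 libraries. C5ar1 was above 20 CPM in the 4 libraries with neutrophil sums of at least 224.7 CPM, and Serping1 was highest in the library labelled GXNI 1, which had the highest fibroblast sum.

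Cfb was close to the limit of detection. It had 7, 10 and 6 counts in sham 1 to 3, 21, 0 and 7 counts in MIRI 1 to 3, and 7, 14 and 12 counts in GXNI 1 to 3. At these depths 3 counts, the limit that a count of 0 allows, correspond to 0.131 to 0.175 CPM, and Cfb reached 0.983 CPM at most, in MIRI 1. The groups overlapped. In the edgeR fits of a single group against sham the filter removed Cfb, and DESeq2 and edgeR without that filter did not call it. Its log2 fold change was 0.40 ± 0.996 in GXNI against MIRI and 0.34 ± 0.73 in MIRI and GXNI together against sham. Of the 2825 exonic bases of Cfb, 2246 (79.5%) lie also in exons of Gm20547, a gene annotated on the same strand across Cfb and its neighbour C2. Gm20547 had 0 counts in every library, and how reads in shared exons were counted is not given in the sources used here, which leaves the level of Cfb uncertain.

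C5ar1 and C3ar1 had higher means in the MIRI and GXNI groups than in sham, C5ar1 by more than C3ar1. With all libraries neither was called by edgeR with its filter on low counts. C5ar1 was read at 11.9, 12.4 and 13.7 CPM in sham 1 to 3, at 45.0, 8.49 and 61.7 CPM in MIRI 1 to 3, and at 12.5, 22.9 and 44.2 CPM in GXNI 1 to 3. In 4 of the 6 operated hearts it was above every sham heart, while the library labelled MIRI 2 was below them and GXNI 1 among them. C3ar1 was read at 11.2, 16.1 and 18.1 CPM in sham, at 24.7, 4.75 and 30.3 CPM in MIRI, and at 7.94, 15.0 and 27.7 CPM in GXNI. For C3ar1 the libraries labelled MIRI 1, MIRI 3 and GXNI 3 were above every sham heart, and MIRI 2 and GXNI 1 were below.

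C5ar1 had a log2 fold change of 1.61 ± 0.62 in MIRI against sham, with an unadjusted p of 0.0351 and an adjusted p of 0.151 in edgeR. In GXNI against sham it was 1.08 ± 0.43, with an unadjusted p of 0.0405 and an adjusted p of 0.24. In MIRI and GXNI together against sham it was 1.36 ± 0.58, with an unadjusted p of 0.0418 and an adjusted p of 0.155. None of these passed the rule. C3ar1 changed by 0.41 ± 0.59, 0.17 ± 0.44 and 0.28 ± 0.52 in the same comparisons.

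In edgeR with its filter on low counts, the receptors were called in MIRI against sham only without the library labelled MIRI 2. With all libraries, C5ar1 was also called by DESeq2 and by edgeR without that filter, as given below. The fit without MIRI 2 was picked after the values were seen, so it is a description. Without that library, C5ar1 rose by 2.08 ± 0.16 and C3ar1 by 0.86 ± 0.21 on the log2 scale in MIRI against sham. The unadjusted p were 2.38e-06 and 0.00387 and the adjusted p 0.000199 and 0.0138. C4b then fell by 1.19 ± 0.32, with an unadjusted p of 0.00654. These were 2 members called higher and 1 lower, where 16.9% of all genes were called higher and 13.3% lower. In MIRI and GXNI together against sham without that library, C5ar1 rose by 1.56 ± 0.46, with an unadjusted p of 0.00777 and an adjusted p of 0.0552, where 9.67% of genes were called higher.

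The same 4 operated hearts were high for the sum of neutrophil markers and for C5ar1. The summed level of the 10 neutrophil markers, which include S100a8 and Csf3r, was 29.8 to 60.5 CPM in the sham libraries. It was 731.7, 27.5 and 669.7 CPM in MIRI 1 to 3 and 50.2, 224.7 and 699.9 CPM in GXNI 1 to 3. The 4 libraries with C5ar1 above sham were those with neutrophil sums above sham, and at most 1 of the 10 markers was at 0 in any library. Not every marker followed the sum in these 4. In GXNI 2, Retnlg at 3.50 CPM and Ly6g at 0.197 CPM were within the sham range. Camp had 0 counts in GXNI 2 and in GXNI 3. Of the macrophage markers, Cd14 and Fcgr1 were also above every sham library in these 4 operated hearts only. Cd14 was at 108.4 and 119.7 CPM in MIRI 1 and 3 and at 39.4 and 111.0 CPM in GXNI 2 and 3. Others of that list, such as Cd163 and Mrc1, did not separate in this way. The part of neutrophil or macrophage content in the level of C5ar1 was not tested. Itgb2, a leukocyte integrin subunit, was among the genes nearest to C5ar1 by pattern, at 0.167 log2 units. Per count of Csf3r, 1 of the neutrophil markers, C5ar1 had 0.411 to 2.23 counts over the 9 libraries, a 5.44-fold range beside a 7.25-fold range of its own level. For C3ar1 the nearest genes were Rasal3 at 0.229 and Rac2 at 0.239.

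The ratio of the receptors to each other did not overlap between sham and operated hearts. There were 1.06, 0.769 and 0.756 counts of C5ar1 per count of C3ar1 in sham 1 to 3, 1.83, 1.79 and 2.04 in MIRI 1 to 3, and 1.57, 1.53 and 1.60 in GXNI 1 to 3. All 6 operated hearts were above all 3 sham hearts, including the libraries labelled MIRI 2 and GXNI 1, in which C5ar1 itself was not above the sham range. By the labels, every MIRI library was also above every GXNI library. The pattern was picked out after these values were seen, among 16 ratios computed, so it is a description with no test.

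**Figure D3:**
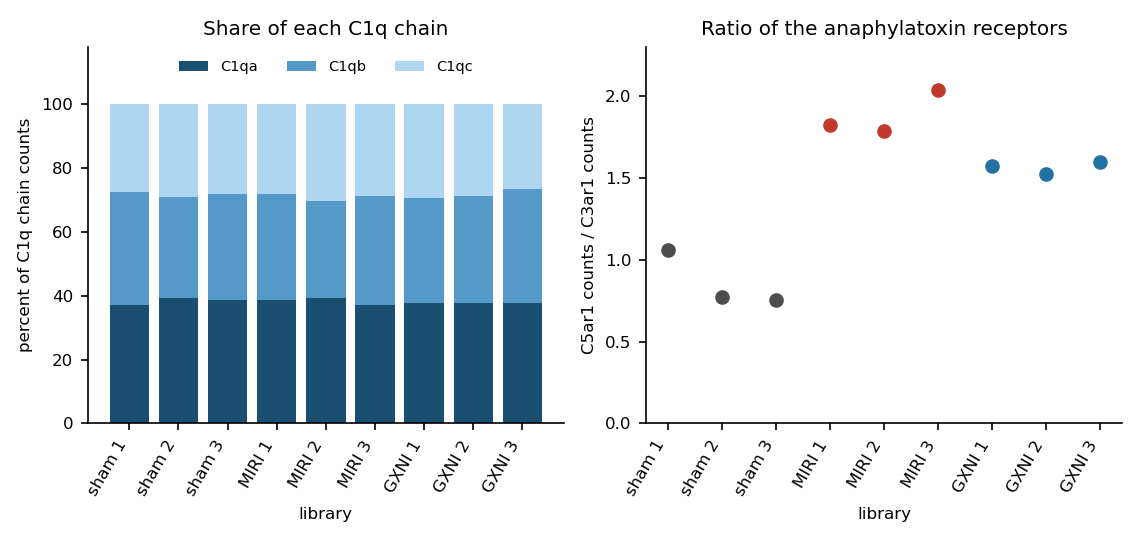
Percent of the summed C1qa, C1qb and C1qc counts that fell on each chain (left, stacked bars) and counts of C5ar1 per count of C3ar1 (right, points) in each of the 9 libraries. The chain shares varied little, and the receptor ratio was at most 1.06 in sham and at least 1.53 in the MIRI and GXNI libraries.

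Of the 8 members that edgeR tested in MIRI against sham, 0 were called, where 6.15% of 14644 genes were called higher and 2.82% lower. Cfb was removed by the filter and not tested. An unadjusted p under 0.05 was reached by 3 of the 8 (C4b, Serping1 and C5ar1), and by 4149 of the 14644 genes. DESeq2 tested all 9 members and called 1, C5ar1, higher (unadjusted p = 0.00451), where it called 5.34% of genes higher. In that DESeq2 fit 1 of the 9 had an adjusted p of at most 0.05, beside 1388 genes higher and 637 lower of 27901. Without the filter on low counts edgeR called C5ar1 higher (unadjusted p = 0.00477) and C4b lower (unadjusted p = 0.00632), where 5.75% and 2.88% of genes were called. Without the library labelled MIRI 3, C4b fell by 0.60 with an unadjusted p of 0.00687, where 1.53% of genes were called lower. In GXNI against sham 0 members were called by edgeR, which tested 8 of them, or by DESeq2, which tested 9. Here edgeR called 2.67% of genes higher and 1.54% lower. Each tool had 1 member at an unadjusted p under 0.05, beside 2914 of 14695 genes in edgeR and 3385 of 27966 in DESeq2. In MIRI and GXNI together against sham 0 of the 9 members were called by either tool, where edgeR called 5.52% of genes higher and 2.85% lower. Each tool again had 1 member at an unadjusted p under 0.05, beside 4488 of 15207 genes in edgeR and 5224 of 29344 in DESeq2. The median log2 fold change of the members was -0.33 in MIRI against sham and in MIRI and GXNI together against sham, beside -0.002 and 0.008 for all genes tested.

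GXNI against MIRI asks whether the drug shifted complement expression after reperfusion. No member was called by edgeR or DESeq2, and 0 had an unadjusted p under 0.05 in either. The edgeR fit called 0.0% of 14762 genes higher and 0.0203% lower, and 47 of them had an unadjusted p under 0.05. The C1q genes stood at -0.01 ± 0.36, 0.05 ± 0.35 and 0.00 ± 0.38 on the log2 scale. C3, C4b and Serping1 stood at 0.43 ± 0.55, 0.36 ± 0.59 and 0.33 ± 0.44, and C3ar1 and C5ar1 at -0.23 ± 0.71 and -0.53 ± 0.73.

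Without both libraries labelled MIRI 2 and GXNI 3, which leaves 2 against 2, C3ar1 fell by 1.25 ± 0.32 and C5ar1 by 1.58 ± 0.33 in GXNI against MIRI. The unadjusted p were 0.00871 and 0.00297 and the adjusted p 0.196 and 0.188. In that fit 3.47% of genes were called lower and 1.52% higher. The 2 libraries were picked with the data known. Their nearest libraries carried the other operated label, but so did those of MIRI 1, MIRI 3 and GXNI 2, which were kept. The fit is therefore a description and nothing on the drug is read from it. The C1q genes, C3, C4b and Serping1 were not called in it. The neutrophil sums of the 4 libraries kept were 731.7 and 669.7 CPM in MIRI 1 and 3 and 50.2 and 224.7 CPM in GXNI 1 and 2.

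**Figure D4:**
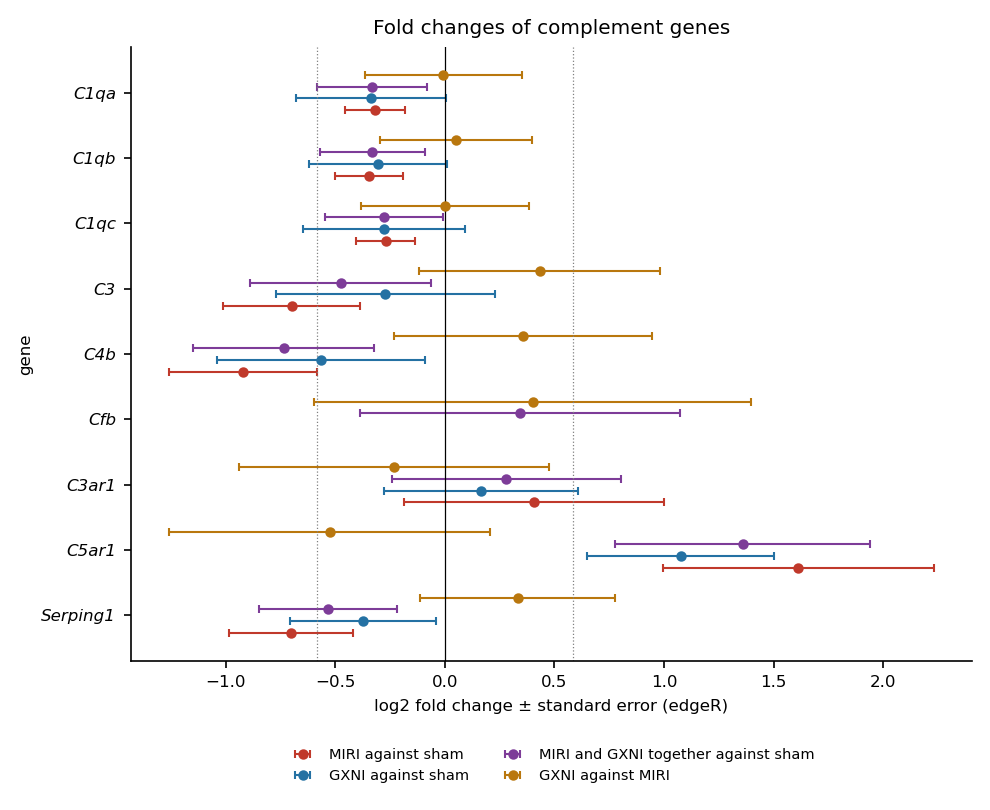
Log2 fold change with its standard error from edgeR (horizontal axis) for each complement gene in 4 comparisons, with dotted lines at a 1.5-fold change. C5ar1 lay above 1 in each comparison with sham, and in GXNI against MIRI the bars of all 9 genes reached across 0.

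Elsewhere in the cascade, 46 other complement genes were listed. In MIRI and GXNI together against sham, edgeR called 1 of the 27 tested higher and 0 lower, where it called 5.52% of all genes higher and 2.85% lower. An unadjusted p under 0.05 was reached by 7 of the 27, and by 4488 of all 15207 genes. The median log2 fold change of the 27 was -0.09. DESeq2 called 6 of 40 higher and 0 lower, where it called 5.18% of all genes higher. In MIRI against sham without the library labelled MIRI 2, edgeR called 7 of 26 higher and 5 lower, against the 16.9% and 13.3% of all genes given above. The gene called by edgeR was Masp1, a protease of the lectin pathway, at 10.9, 7.87 and 11.1 CPM in sham 1 to 3, 16.4, 12.2 and 21.7 CPM in MIRI 1 to 3, and 14.8, 21.3 and 26.5 CPM in GXNI 1 to 3. All 6 operated hearts were above all sham hearts, which 8.4% of the 15207 genes tested showed. The log2 fold change of Masp1 was 0.92 ± 0.25, with an unadjusted p of 0.00458 and an adjusted p of 0.0875, and it was also called in GXNI against sham at 1.08 ± 0.26. It was called in the fits of both groups together without the library labelled MIRI 2 and without GXNI 1 as well. In MIRI against sham with all libraries, C1s1 was the only listed gene called by edgeR with its filter on low counts. It was lower, where 2.82% of all genes were called lower. C1s1 encodes a protease that C1q activates and the C1 inhibitor blocks, and it changed by -0.85 ± 0.22 with an unadjusted p of 0.00672 and an adjusted p of 0.0928.

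By list, the highest transcript per length among the other classical and lectin genes over the 9 libraries was Colec11, a soluble lectin, at 10.9 ± 2.61 RPKM in sham, a spread that took in C1s1 at 10.6 ± 0.68, and with a log2 fold change of -0.66 in the 2 groups together against sham. Among the regulators it was Clu, clusterin, at 200.6 RPKM in sham and a log2 fold change of 0.37. Among the terminal components it was C7 at 7.68 RPKM and -0.43, and among the alternative pathway genes Cfp, properdin, at 10.2 RPKM and 0.21. None of these 4 was called. In the list of other receptors, with 7 of 8 tested, the median was 0.999, against 0.008 for all genes, and edgeR called 0. An unadjusted p under 0.05 was reached by 5 of the 7, and by 4488 of all 15207 genes. DESeq2 called 4 of the 8 higher in the same comparison (5.18% of all genes), Cd93, Itgam, Itgb2 and Itgax, the last 3 being leukocyte integrin subunits that form complement receptors 3 and 4. The highest of that list per length was C1qbp at 33.4 RPKM, a protein found largely in mitochondria, which is named for its binding to C1q.

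**Figure D5:**
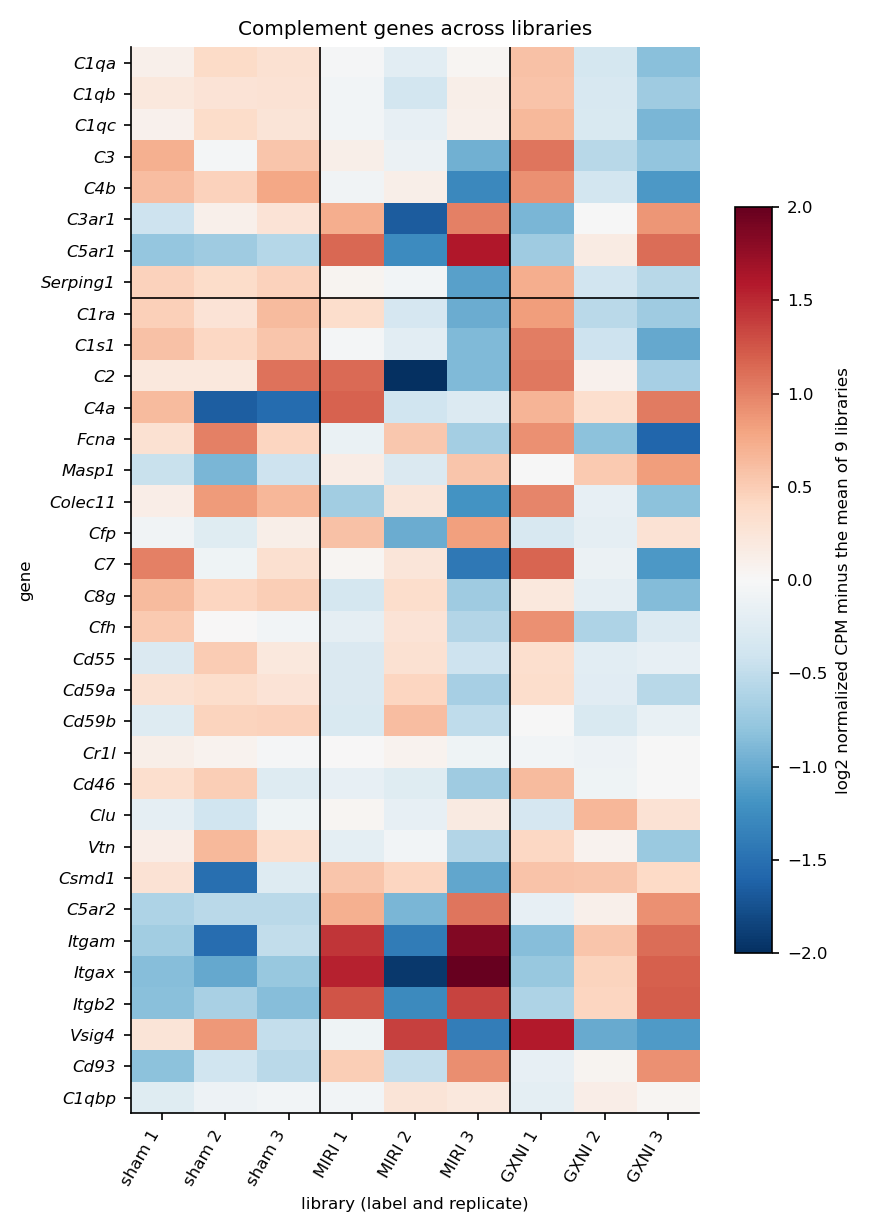
Log2 normalized CPM minus the gene's mean over the 9 libraries (colour, cut at 2 units either way) for 8 of the 9 members above the line and 26 of the 27 other complement genes tested below it. Cfb and Cfd, each at 0 in 1 library, were left out. C5ar1, C5ar2, Itgam, Itgax and Itgb2 were high in the libraries labelled MIRI 1, MIRI 3 and GXNI 3, and C4b was lowest in MIRI 3 and GXNI 3.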

How the data were processed

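Heart RNA was sequenced from 3 mice in each group. The authors discarded reads with adapters, poly-N or low quality, used HISAT2 for alignment and featureCounts (Subread) to count reads in genes. The submitters' processing notes also name mm10 and DESeq2, while versions, the annotation and the strand setting are not given in the sources used here. The deposited values are raw counts for 54532 genes in 9 columns, 1 per library. GENCODE M21 (GRCm38) supplied symbols for 54409 genes, exon lengths and coordinates, and 123 genes stayed without a symbol.

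Each comparison was fitted over all genes with edgeR 4.0.16 in R 4.3.3 (TMM, filterByExpr, quasi-likelihood F test), which was tested on simulated data first. The simulated libraries took their spread from the sham libraries, so that test does not cover the wider spread of the operated groups. Adjusted p are Benjamini-Hochberg values over all genes. The SE is the log2 fold change divided by the square root of F. CPM used TMM factors over 9 libraries. DESeq2 1.42.0, RLE, no filter, 1 fit for 9 libraries, a replicate block, an adjusted p of 0.05, each library left out and 2 libraries left out were alternatives. No 2 libraries of the same group agreed within sampling noise, and pairs across groups were not compared. Each library came from its own animal, and replicate numbers were not taken as pairs. Counting intervals and limits cover counting error only.

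The 9 genes, the lists of 46 other complement genes and the markers were chosen with earlier results of these data known. Other complement genes are named if called in the 2 operated groups together or highest per length in their list over the 9 libraries, and the genes nearest in pattern by the smallest root mean square difference of centred log2 CPM among genes with a mean CPM of at least 1. C1s1, the integrins and Cd93 were named because they were called. Not every gene this rule names is reported here.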

Additional observations from a re-analysis of the deposited data

Results flagged for a closer look

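Among the 6 libraries of the MIRI and GXNI groups, each of the 9 complement genes was checked for a library far from the others by Dixon's criterion. C3 in the library labelled GXNI 1, at 303.6 CPM, was the only such value, with the next library, MIRI 1, at 155.8 CPM. Chance alone marks about 1 in 20 such groups. The mesothelial markers of that library summed to 76.1 CPM, and their part in the value was not tested.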

How the results depend on the processing

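With all libraries kept, the count of members called higher in MIRI against sham was 1 with DESeq2 and 1 without the filter on low counts, and the count called lower was 1 without that filter. The shares of all genes called there were 5.34%, 5.75% and 2.88%. Without both libraries labelled MIRI 2 and GXNI 3, 2 members were called higher and 1 was called lower in MIRI against sham, and 2 were called lower in GXNI against MIRI. The shares of all genes called there were 16.9%, 13.3% and 3.47%. Leaving out 1 library at a time gave 0 to 2 members higher and 0 to 1 lower in MIRI against sham, 0 to 1 higher and 0 to 6 lower in GXNI against sham, and 0 to 1 higher and 0 to 2 lower in the 2 groups together against sham. The highest counts came without MIRI 2 in MIRI against sham (16.9% of all genes higher, 13.3% lower). In GXNI against sham they came without GXNI 1 (10.7% and 7.08%). In the 2 groups together they came without MIRI 2 for higher (9.67%) and without GXNI 1 for lower (5.7%). Without MIRI 3, 1.53% of genes were called lower in MIRI against sham, C4b among them.

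Of 431 alternative values of the 34 log2 fold changes, 378 kept their direction and side of the rule, 22 passed the rule and 31 changed sign, 23 of these in GXNI against MIRI. In the latter comparison, leaving out 1 library gave -0.51 to 0.26 for C1qa, -0.41 to 0.29 for C1qb, -0.54 to 0.29 for C1qc, -0.40 to 0.74 for C3, -0.41 to 0.71 for C4b, -0.14 to 1.81 for Cfb, -0.79 to 0.19 for C3ar1 and -0.19 to 0.56 for Serping1. In GXNI against sham it gave -0.81 to 0.013 for C1qc, -1.09 to 0.037 for C3 and -0.40 to 0.51 for C3ar1, and in MIRI against sham -0.029 to 0.86 for C3ar1. Without both libraries, C1qa was 0.20 and Cfb -0.28 in GXNI against MIRI, and C1qc was 0.013, C3 0.037 and C3ar1 -0.40 in GXNI against sham. C1qc in GXNI against MIRI was -0.014 with DESeq2, -0.0043 with RLE, -0.0001 without the filter and -0.0091 in 1 fit of 9 libraries. The causes were not tested, and the fits that left libraries out also held fewer of them.

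With the replicate number as a block, C1qb was -0.040 and C1qc -0.14 in GXNI against MIRI, and 0 members were called in any comparison, as without it. Deviations of same-numbered libraries correlated at -0.445 (MIRI 1 and GXNI 1) to 0.701 (MIRI 3 and GXNI 3). The numbers were not taken as pairs, and whether they mark a shared batch was not tested. With 3 libraries in a group that lie far apart, moderate changes of these genes could be missed, and Cfb is limited by depth.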

Other observations

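Hc, the gene of C5, the source of the C5ar1 ligand, had 0 counts in each sham library, 7, 0 and 13 counts in MIRI 1 to 3, and 1, 4 and 12 counts in GXNI 1 to 3. It was under the filter of edgeR, and DESeq2 called it higher in the 2 operated groups together (adjusted p = 0.025). C5ar2, the second C5a receptor, was read at 1.99, 2.08 and 2.08 CPM in sham 1 to 3, at 4.96, 1.60 and 6.35 CPM in MIRI 1 to 3, and at 2.70, 3.25 and 5.69 CPM in GXNI 1 to 3. Every operated heart but the library labelled MIRI 2 was above every sham heart, and the log2 fold change of the 2 groups together was 0.999 ± 0.41, with an adjusted p of 0.144 in edgeR.

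Cfd, the gene of factor D, which fat cells secrete, had 62 counts in the library labelled MIRI 2 and 0 to 20 in the others. The 5 adipocyte markers summed to 4.51 CPM in that library and to at most 0.656 CPM elsewhere. Vsig4, a complement receptor of resident macrophages, was highest in the libraries labelled GXNI 1 and MIRI 2, at 2.70 and 2.32 CPM, and at 1.07, 1.63 and 0.639 CPM in sham 1 to 3. In MIRI 1 and 3 it was at 0.843 and 0.343 CPM and in GXNI 2 and 3 at 0.443 and 0.406 CPM. These genes were singled out after their values were seen.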
